A study of Rattus norvegicus with 8 samples.

Results

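The cytosolic ribosomal protein genes of rat fracture callus cells are described here across 8 single-cell RNA libraries. Members were all gene symbols in the deposited tables that begin with Rpl or Rps followed by a digit, with Rplp0, Rplp1, Rplp2 and Rpsa added and the Rps6k kinases and Rps4y2 left out. This gave 84 of the 12282 genes listed in at least 1 library: 51 Rpl genes and 33 Rps genes. Of the 84, 76 encode a protein of the standard cytosolic ribosome, out of 80 such proteins. The other 8 are the paralogs Rpl22l1, Rps27l, Rpl36al, Rpl39l and Rpl3l, the pseudogene symbols Rpl37a-ps1 and Rps4x-ps1, and Rps19bp1, which encodes a protein that binds a ribosomal protein. Rps9 is not listed under its symbol and was not analysed here. Fau and Rack1 encode ribosomal proteins but fall outside the symbol rule.

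All animals were Sprague Dawley rats with a closed fracture of 1 femur, fixed with a nail inside the bone, and no genetic alteration is named. The control libraries came from untreated rats, and the other 6 from rats given zoledronate, a bisphosphonate that slows bone resorption, at 0.3 mg/kg/week under the skin for 12 weeks before the fracture. Zoledronate was given alone, with CGRP (calcitonin gene-related peptide, a neuropeptide), or with magnesium. Callus was taken at week 4 and week 12 after fracture, giving 1 library for each of the 4 treatments at each week. Nails were of steel or contained magnesium, and which group received which is not stated. Cells were released by collagenase A over 4 h and kept in a dish for 24 h, so what was measured is cells that survived and attached. The sources used here state neither the number of animals per library nor the dose of CGRP.

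With 1 library per treatment and week, nothing was tested between libraries. "Higher" and "lower" below refer to those libraries, and intervals cover counting error only. Levels are UMIs (unique molecular identifiers, each standing for 1 captured transcript) of a gene per 1000000 UMIs of its library (CPM), summed over barcodes with at least 5000 UMIs. A transcript is counted once whatever its length, so length by itself does not raise a level. Differences between genes in capture and in how reads match were not measured. Barcodes kept ranged from 6809 to 10370 per library, with a median depth of 12742 to 20545 UMIs, and 13 to 31 barcode sequences were shared by any pair of libraries. All 10 fibroblastic markers were listed, with a summed level of 34869 to 57949 CPM. The osteoblast list, which shares Col1a1 with it, summed to 13479 to 24681 CPM. Most of this was Col1a1, with a mean of 19095 CPM by itself. Col1a1 and Spp1 were the only genes of that list to reach 50 CPM in a comparison below. The macrophage list summed to 12.0 to 25.3 CPM, the endothelial list to 37.1 to 52.1 CPM, the erythroid list to 1.23 to 2.23 CPM and the lymphoid list to 0.2 to 2.48 CPM. The label "fracture callus cells" thus covered a culture with fibroblastic transcripts, Col1a1 among them, and almost no blood or endothelial ones. Single fibroblastic markers were not alike between libraries. In zoledronate over control at week 12, 6 of 8 tested were higher and 1 lower by at least 0.32 on the log2 scale. This compared with 13.3% and 27.5% of all genes, and Dcn was highest at 6.76. In CGRP over zoledronate at week 4, 1 was higher and 7 lower, against 12.8% and 11%, with Dcn at -3.71. Lum was at -3.52 in magnesium over zoledronate at week 12. Among macrophage markers, Csf1r had a mean of 0.227 CPM and Ptprc of 0.0157 CPM, so most of that list's sum came from its other genes. The osteoclast list summed to 63.0 to 168 CPM and the chondrocyte list to 81.3 to 316 CPM.

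The cytosolic ribosome is the machine that reads messenger RNA and builds protein. Its small 40S subunit, with the Rps proteins, decodes the message, and its large 60S subunit, with the Rpl proteins, joins the amino acids. Ribosomal protein mRNAs are among the most abundant in growing cells, and many begin with a run of cytosines and thymines (the 5' terminal oligopyrimidine motif) through which nutrient and growth signals set how actively they are translated.

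This start of the transcript could be looked at for 65 of the 84 members, whose start sites are listed by RefSeq on GRCr8. The windows below hold 15 bases before and 15 from the annotated start, 5' to 3' on the gene's strand, with the longest uninterrupted run of C and T in capitals. They are shown for the highest member, for members whose levels are followed below, and for a pair of genes beside their paralogs.
Rplp1, chr8:71290858-71290887, minus strand: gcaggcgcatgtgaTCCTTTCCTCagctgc
Rps2, chr10:14251833-14251862, plus strand: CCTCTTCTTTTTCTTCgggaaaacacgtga
Rpl37a, chr9:81748076-81748105, plus strand: gcatgcccgttgcgTCTCTTCCTCTTCggg
Rpl17, chr18:70856261-70856290, plus strand: tagccttcgcgCTTCCTCTTCCTgttagcg
Rpl22, chr5:168117946-168117975, plus strand: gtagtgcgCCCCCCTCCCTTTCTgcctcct
Rpl22l1, chr2:113683181-113683210, plus strand: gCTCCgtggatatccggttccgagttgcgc
Rps27, chr2:177964592-177964621, minus strand: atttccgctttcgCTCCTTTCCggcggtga
Rps27l, chr8:76443643-76443672, plus strand: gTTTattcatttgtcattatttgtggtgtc
Rpl36, chr9:1533765-1533794, plus strand: ctgTCCggccgccatcggaaagctgcaggt

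Of the 61 matched members of the standard ribosome, 41 (67.2%) had a C and T run of at least 8 bases in this window, against 11.4% of all 33469 promoters in the table. Their median longest run was 10 bases, against 4 in all promoters. The first 5 transcribed bases were all C or T in 33 of them (54.1%), against 4.75% of all promoters. Rpl22 and Rps27 had runs of 15 and 9 bases, and their paralogs Rpl22l1 and Rps27l runs of 4 and 3. Over the full window of 250 bases before to 50 after the start, counting either strand, CCGGAAG (the ETS core) was found in 32.8% of these members and 8.75% of all promoters. ATGGCGG (the YY1 core) was found in 23.0% against 4.80%, GGGCGG (SP1) in 57.4% against 33.1%, and TATAAA in 9.84% against 14.2%. These are matches of letters in a reference annotation, and the data measured neither the starts in use nor translation.

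The level of the members spanned a wide range that was kept from library to library. The highest was Rplp1, an acidic protein of the stalk that recruits translation factors to the 60S subunit, with a mean of 13048 CPM and values of 13445 and 12091 in control, 13213 and 12975 in zoledronate, 12626 and 14387 in CGRP, and 13778 and 11870 in magnesium at weeks 4 and 12. Other high members were Rpl41, a very small basic peptide of the 60S subunit (mean 11043 CPM), Rps2 of the 40S entry region (8870), Rplp0, the base of the stalk (7618), Rps27a, made as a fusion with ubiquitin (6641), Rpl27a (6558) and Rps29 (6545). The 8 highest members held 26.7% to 27.9% of all member UMIs in each library. The other stalk genes were at lower mean levels, Rplp2 at 2842 CPM and Rpl12 at 3759 CPM. Rpl5 and Rpl11, which carry the 5S rRNA and can bind the p53 regulator Mdm2, had means of 1297 and 2926 CPM. The proteins of 1 ribosome are present once each, apart from stalk proteins, whereas the transcripts of the standard members ranged from 101 to 13048 CPM with a median of 2861. The median was 3050 CPM for 40S and 2528 CPM for 60S members.

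**Figure D1:**
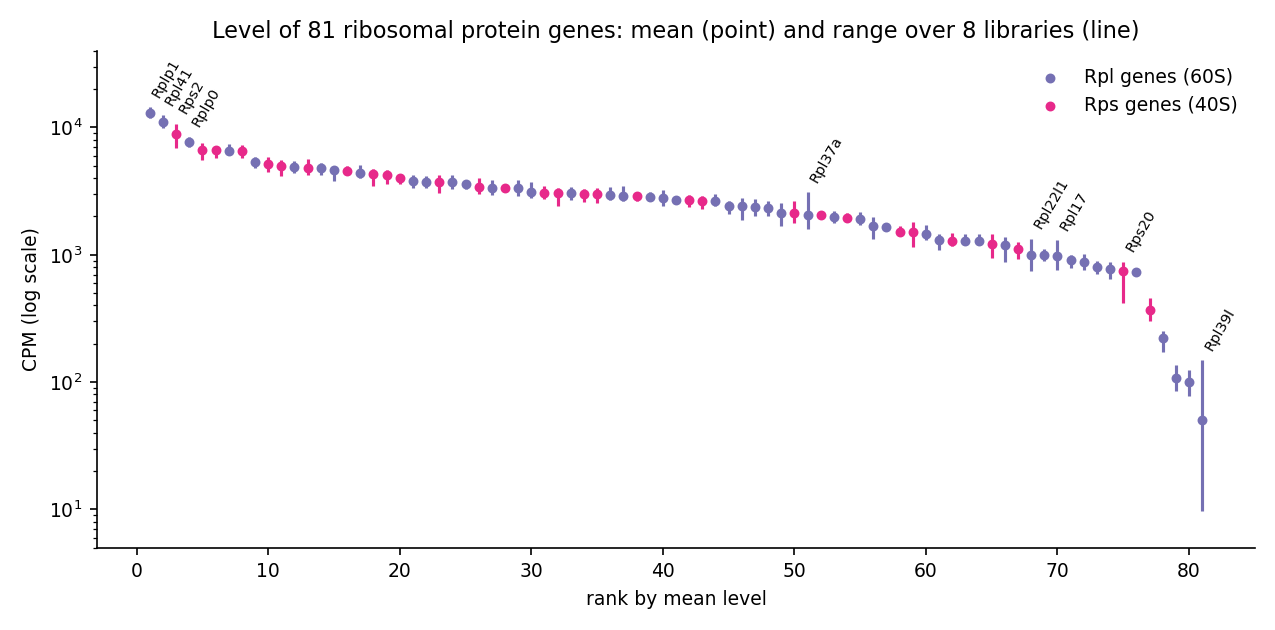
Level of the 81 members with a mean of at least 50 CPM, ranked from left to right (log axis, CPM). Points are means over the 8 libraries and lines run from the lowest to the highest library; purple marks Rpl and pink Rps genes. Lines are short for 68 of the 81 members, whose highest library is under 1.5 times the lowest, and longest for Rpl39l, from 9.72 to 148 CPM.

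At the low end were Rpl7 (mean 101 CPM), Rpl39l (50.1), Rps19bp1 (13.1), Rpl3l and Rps4x-ps1. Rpl3l, the paralog of Rpl3 found mainly in muscle, had 8 to 17 UMIs per library. Rps4x-ps1 was listed in 2 libraries only, with 8 UMIs in zoledronate and 5 in magnesium at week 4. Levels of standard members such as Rpl7, Rpl18 (107 CPM), Rpl27 (221 CPM) and Rps15 (369 CPM) are uncertain where reads can match copies of a gene, and the part of such copies in their levels was not tested. RefSeq on GRCr8 lists 849 pseudogene entries named after 78 of the members. Of these, 23 are named after Rpl7, 15 after Rpl18, 17 after Rps15 and 6 after Rpl27. Among more abundant members, 12 are named after Rpl39, 13 after Rpl37a, 14 after Rpl17 and 11 after Rps20. The sources used here do not say how reads that match several copies were treated. The order of levels among the 76 standard members was much the same in every library, with a Spearman rho of 0.975 to 0.998 over the 28 pairs of libraries, which share the same genes and annotation. Fau and Rack1 had means of 3268 and 1772 CPM.

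The members also differed little between libraries. Of the 81 members with a mean of at least 50 CPM, 68 (84.0%) had a highest library under 1.5 times the lowest, 11 were between 1.5 and 2 times, and 2 were above: Rps20 at 2.12 and Rpl39l at 15.2 times. The share under 1.5 times was 60.5% among all 2408 genes of that level and 58.9% among the 202 non-members of at least 500 CPM. Taken relative to the summed members, the SD of log2 level over the 8 libraries had a median of 0.073, and 52 of 81 members were under 0.1. The 10 members that varied most on this scale were Rpl39l (SD 1.47), Rpl37a (0.32), Rpl17 (0.31), Rps20 (0.31), Rpl22l1 (0.29), Rpl36 (0.18), Rpl37a-ps1 (0.16), Rpl18 (0.16), Rps2 (0.16) and Rps27l (0.16).

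Rps20, a protein of the 40S head, was at 858 and 735 CPM in control, 770 and 417 in zoledronate, 884 and 835 in CGRP, and 772 and 698 in magnesium at weeks 4 and 12. Its level in zoledronate at week 12 (95% interval 414 to 420) stood below the other 7 libraries. Rpl37a, a small zinc-binding 60S protein, was at 1778 and 1875 CPM in control, 2026 and 3098 in zoledronate, 1840 and 1890 in CGRP, and 2313 and 1587 in magnesium. The same zoledronate library at week 12 was here the highest. Rpl37a-ps1 was lowest in that library, at 876 CPM, against 1044 to 1384 in the other 7. Reads may be split between Rpl37a and this copy, so their sum is also given: it was 3974 CPM in zoledronate at week 12 and 2709 to 3562 CPM elsewhere.

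Rpl17, which lines the exit of the tunnel for the growing protein, fell into separate levels. It was at 1197 CPM in zoledronate and 1186 in magnesium at week 4 and at 1300 in CGRP at week 12, and at 978 in control at week 12. The remaining 4 libraries, control and CGRP at week 4 and zoledronate and magnesium at week 12, held 771, 816, 777 and 755 CPM. The high and low libraries therefore did not follow treatment or week. Rpl36, of the 60S subunit, was at 2202 and 2374 CPM in control, 1960 and 1685 in zoledronate, 2566 and 2406 in CGRP, and 2086 and 1862 in magnesium. Control and CGRP were above zoledronate and magnesium at both weeks.

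**Figure D2:**
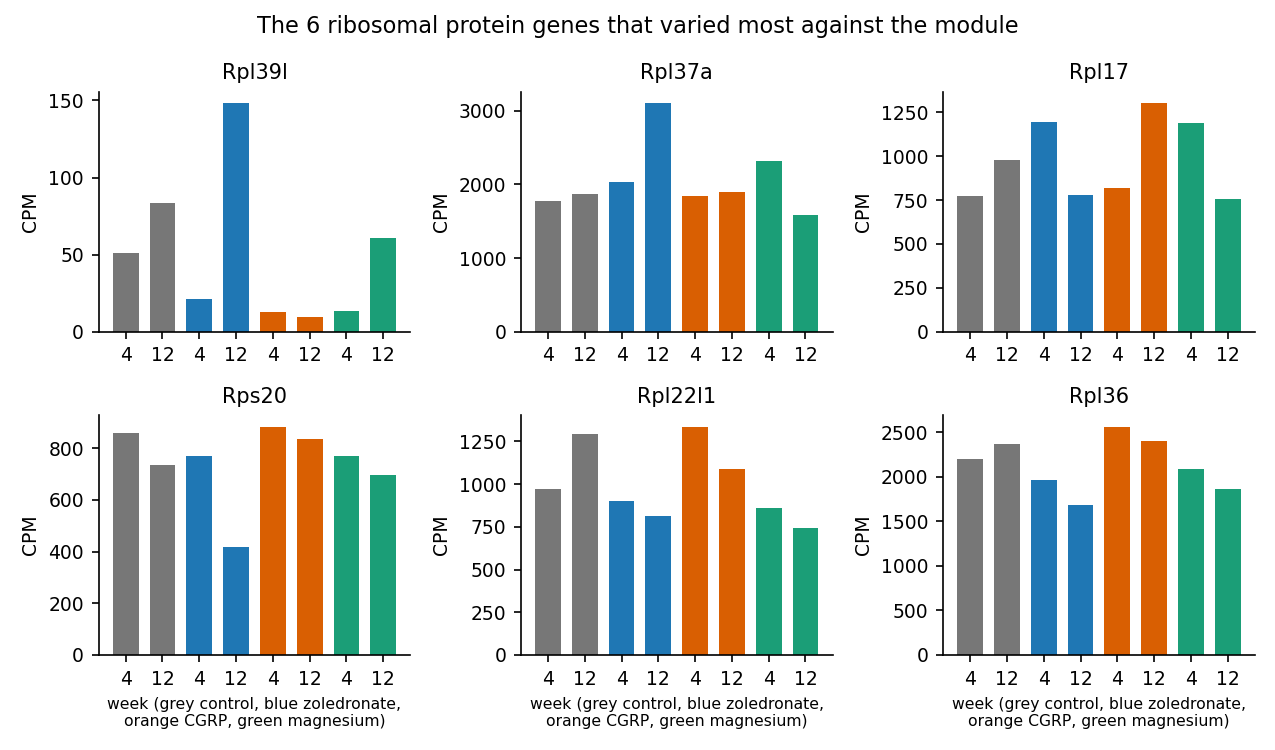
Level in CPM of the 6 members that varied most relative to the summed members, 1 bar per library, with axes from 0. Rpl39l ranged from 9.72 to 148 CPM; zoledronate at week 12 was highest for Rpl39l and Rpl37a (3098 CPM) and lowest for Rps20 (417 CPM).

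Several members are paralogs that can take the place of another protein in the ribosome, and their share of the pair could be followed. Rpl22l1 made up 43.2% of the UMIs of Rpl22l1 and Rpl22 in control at week 4 and 52.2% at week 12, 41.5% and 36.0% in zoledronate, 51.6% and 43.8% in CGRP, and 40.3% and 38.3% in magnesium. It was thus at or above the level of Rpl22 in control at week 12 and CGRP at week 4. Rpl22l1 itself was at 970 and 1292 CPM in control, 899 and 816 in zoledronate, 1337 and 1090 in CGRP, and 863 and 745 in magnesium, while Rpl22 kept between 1183 and 1449 CPM. Rps27l, a p53 target, made up 41.6% to 51.5% of its pair with Rps27. Rpl36al held 34.8% to 38.8% of its pair with Rpl36a.

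Rpl39l, the paralog of Rpl39 at the protein exit tunnel that is best known from the testis, was the member with the most unequal levels. It was at 51.0 and 83.6 CPM in control, 21.3 and 148 in zoledronate, 12.9 and 9.72 in CGRP, and 13.4 and 60.6 in magnesium at weeks 4 and 12. Week 12 was above week 4 in control, zoledronate and magnesium, and below it in CGRP. Its share of the UMIs of Rpl39l and Rpl39 ran from 0.252% in CGRP at week 12 to 4.89% in zoledronate at week 12. The counting error was small beside these differences, at 146 to 150 CPM for the highest library and 9.22 to 10.2 CPM for the lowest (95% exact Poisson intervals).

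Within each library, Rpl39l was carried by a minority of cells. A UMI of it was found in 16.1% and 24.96% of cells in control, 7.10% and 45.6% in zoledronate, 5.39% and 4.28% in CGRP, and 5.15% and 29.7% in magnesium at weeks 4 and 12. After each cell was thinned to 5000 UMIs these shares were 11.2% and 17.4%, 5.12% and 33.8%, 3.49% and 2.74%, and 3.29% and 18.3%, the 197 to 960 shallower barcodes per library being left out. Had its UMIs been spread over the cells in proportion to depth, 34.7% of cells in control at week 4 would have had none, against 83.9% observed. In zoledronate at week 12 the expected and observed shares were 10.5% and 54.4%, and in CGRP at week 12 they were 87.2% and 95.7%. Cells with at least 3 UMIs, 2.25% to 32.9% of a library, held 78.9% to 95.2% of all its UMIs. In those cells Rpl39l was at 395 and 440 CPM in control, 374 and 387 in zoledronate, 301 and 315 in CGRP, and 337 and 250 in magnesium. The floor of 3 UMIs sets a lower bound on the level in such cells, so these values are a description only.

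Cells with at least 3 UMIs of Rpl39l were only slightly deeper, with a median of 21157 against 20481 UMIs for cells with none in control at week 4 and 17384 against 15521 in zoledronate at week 12. Their share of member UMIs was 26.1% against 26.0% in the former library and 24.3% against 23.3% in the latter. In control and CGRP at week 12 it was lower than in cells with none, at 21.8% against 22.8% and 26.5% against 27.1%. It was also lower in CGRP at week 4, at 25.7% against 26.0%. In magnesium it was lower at both weeks, at 24.2% against 24.8% and 22.9% against 23.2%. In zoledronate at week 4 both shares were 24.7%. Among the 2405 other genes of at least 50 CPM, 0 were higher and 0 lower by at least 0.32 on the log2 scale in the cells with 3 or more UMIs in all 8 libraries. The largest mean log2 differences were 0.31 for Igfbp3, which binds insulin-like growth factors, and -0.40 for Fam111a, and each changed sign between libraries. Single libraries were further apart than these means. Igfbp3 ran from -0.36 to 1.40, Grem1 from -0.39 to 1.48 and Fam111a from -1.66 to 0.50. The cells with Rpl39l thus differed from the others in some genes within some libraries, but in none by that much in all 8. No cell class that should lack Rpl39l was present in these cultures, so a background share from free RNA could not be measured, and whether the cells with Rpl39l came from particular animals was not tested. The split of cells by Rpl39l was chosen after its values were seen.

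No other member was divided between cells in this way. Spread between cells was taken relative to each cell's summed member UMIs, so differences in the joint share are left out. The coefficient of variation on this scale, after counting error was removed, averaged 3.34 over the 8 libraries for Rpl39l (range 1.301 to 4.97). It was 0.40 for Rpl22l1, 0.24 for Rps27l, 0.22 for Rpl4 and 0.20 for Rpl17. The median over 81 members was 0.11, and 76 of them were under 0.2. Rpl32 (0.058) and Rpl29 (0.062) were the most even relative to the summed members.

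The members' joint share of all UMIs was 26.0% in control at week 4 and 22.6% at week 12, 24.7% and 23.7% in zoledronate, 26.0% and 27.1% in CGRP, and 24.7% and 23.1% in magnesium, with counting intervals of under 0.01 percentage points to either side. CGRP at week 12 was highest and control at week 12 lowest. From week 4 to week 12 the summed level was lower in control (log2 ratio -0.20), magnesium (-0.10) and zoledronate (-0.06), and higher in CGRP (0.06). Of the 81 members, 68 were lower at week 12 in control, 62 in magnesium, 58 in zoledronate and 23 in CGRP. The highest level of a member was in CGRP at week 12 for 43 of 81, and the lowest in control at week 12 for 40, zoledronate at week 12 for 20 and magnesium at week 12 for 18. The same counts were not made over all genes, so whether the members differed from other genes in them was not tested. The ratio of 60S to 40S member UMIs was 1.302 and 1.41 in control, 1.31 and 1.37 in zoledronate, 1.32 and 1.38 in CGRP, and 1.32 and 1.35 in magnesium, higher at week 12 under every treatment. Cells within a library spread far more than libraries did: the middle 90% of cells ran from 19.9% to 32.0% in control at week 4 and from 19.8% to 34.7% in CGRP at week 12. The SD between cells was 3.37 to 4.51 percentage points, 10.6 to 12.6 times the counting SD.

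**Figure D3:**
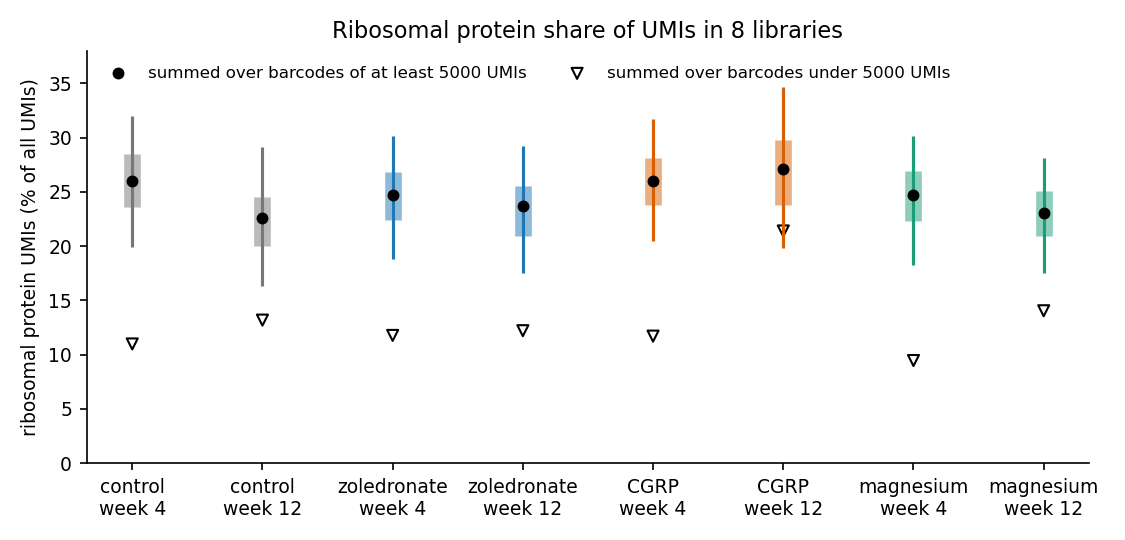
Share of all UMIs that came from the 84 members in each library. Black points are sums over barcodes of at least 5000 UMIs, thick and thin bars the middle 50% and 90% of those cells, and open triangles sums over barcodes under 5000 UMIs; points run from 22.6% to 27.1%, and every triangle lies below its point.

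In the first comparison, zoledronate against control, the question was how the bisphosphonate goes with the cells' translation machinery. At week 4 the summed members were at 24.7% against 26.0%, a log2 ratio of -0.08. The shift was small, with 74 of 80 members below 0 and a median of -0.09, against a median of -0.01 for all genes. The share of all genes above or below 0 was not computed, here or in the comparisons that follow. At a threshold of 0.32 on the log2 scale in either direction, 1 member was higher and 0 lower, against 4.79% and 2.91% of all 2403 genes of at least 50 CPM. The higher one was Rpl17 (log2 ratio 0.63), followed by Rpl37a (0.19), Rps29 (0.07) and Rpl38 (0.03), and the lowest were Rpl18 (-0.30), Rpl7 (-0.29), Rps3a (-0.23) and Rpl3 (-0.22). Rpl39l, at 21.3 against 51.0 CPM, fell below the mean of 50 CPM asked of a gene in this comparison.

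At week 12 the summed members stood slightly the other way, 23.7% in zoledronate against 22.6% in control (log2 ratio 0.07), with 51 of 81 members above 0 and a median of 0.06, against -0.09 for all genes. Past the threshold of 0.32, 5 were higher and 4 lower, against 13.3% and 27.5% of all 2434 genes. The higher ones were Rpl39l (0.82), Rpl37a (0.72), Rps16 (0.43), Rpl13a (0.42) and Rpl35 (0.38), and the lower ones Rps20 (-0.82), Rpl22l1 (-0.66), Rpl36 (-0.49) and Rpl17 (-0.33). With TMM or DESeq2 scaling, which moved the median of all genes by 0.11 and 0.13, the summed ratio was 0.18 and 0.20, and 13 and 16 members were higher. The share of all genes past the threshold was not computed with these factors, so these counts have no background. Cells with a UMI of a division gene (Mki67, Top2a or Cenpf) made up 8.03% of zoledronate and 47.1% of control cells at week 12, and 27.8% and 42.5% at week 4. In cells without such a UMI, an alternative added after seeing the data, the summed log2 ratio was 0.02 at week 12 and -0.09 at week 4. In those cells 4 members were higher and 6 lower at week 12, against 11.2% and 17.6% of all genes.

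The comparison of CGRP with zoledronate alone asked how the neuropeptide, added to the drug, goes with the same genes. At week 4 the summed members were at 26.0% against 24.7% (log2 ratio 0.08), and 65 of 80 members were above 0. Their median was 0.09, close to the 0.06 of all genes and the 0.08 of non-members of at least 500 CPM. Past the threshold of 0.32, 2 were higher and 1 lower, against 12.8% and 11% of all 2400 genes. The higher ones were Rpl22l1 (0.57) and Rpl36 (0.39), with Rpl31 (0.26) and Rps27l (0.25) next, and the lower one was Rpl17 (-0.55), with Rpl37a (-0.14), Rpl13a (-0.12) and Rps16 (-0.10) above it. Cells with a division UMI made up 57.0% of the CGRP and 27.8% of the zoledronate library. In cells without one, the log2 ratio of Rpl22l1 was 0.64 and that of the summed members 0.12.

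At week 12 the summed members were higher in CGRP than in zoledronate. Their share was 27.1% against 23.7% in zoledronate, a log2 ratio of 0.19 or 1.14-fold, and 72 of 81 members were above 0. Past the threshold of 0.32, 22 members (27.2%) were higher and 2 lower, against 10.9% and 14.5% of all 2339 genes. The highest were Rps20 (0.999), Rpl17 (0.74), Rpl18 (0.69) and Rpl37a-ps1 (0.66), and the lowest Rpl39l (-3.80), Rpl37a (-0.71), Rpl13a (-0.15) and Rpl38 (-0.13). Rpl39l reached the mean of 50 CPM asked here only through its level in the zoledronate library, so it could enter only as a lower member. The median of the members was 0.22, against -0.01 for all genes. Of the 19 members in which mutations cause Diamond-Blackfan anaemia, a failure of red cell production, 8 were higher and 0 lower, with a median of 0.30. At 1.5-fold, 5 members were higher, and the share of all genes was not computed. In cells without a division UMI the summed log2 ratio was 0.22 and 27 members were higher, against 9.4% of all genes. The CGRP library was also the shallowest, with a median of 12742 UMIs per cell against 16083. With every cell thinned to 5000 UMIs the summed log2 ratio was 0.20.

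Magnesium with zoledronate, set against zoledronate alone, showed little at week 4. The summed members were at 24.7% in both libraries, with a log2 ratio of 0.00476 for the sum and -0.00606 for the median member, which differ in sign. Past that threshold, 0 members were higher and 0 lower, against 1.56% and 1.05% of all 2374 genes, so that few genes of any kind were apart. The ends were Rpl37a (0.19), Rps29 (0.13), Rps26 (0.12) and Rpl31 (0.11), and Rps18 (-0.14), Rpl21 (-0.10), Rpl18 (-0.10) and Rpl7a (-0.09). The sum turned to -0.00466 with all barcodes and to the same value after thinning. At week 12 the shares were 23.1% and 23.7% (log2 ratio -0.04), and 3 members were higher and 3 lower, against 15.6% and 11.1% of all 2378 genes. Rps20 (0.74), Rpl27 (0.42) and Rpl37a-ps1 (0.36) were higher, with Rpl34 (0.31) next, and Rpl39l (-1.27), Rpl37a (-0.96) and Rpl38 (-0.35) lower, with Rpl35 (-0.28) next.

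The CGRP and magnesium comparisons share the zoledronate library of each week, so Rps20, Rpl37a, Rpl37a-ps1 and Rpl39l, in which zoledronate at week 12 was the lowest or the highest library, appear in both at week 12. The members of at least 50 CPM were less spread than non-members of at least 500 CPM in 5 of the 6 comparisons. The SD of their log2 ratios was 0.11 and 0.24 for zoledronate over control at weeks 4 and 12, 0.13 and 0.50 for CGRP, and 0.06 and 0.25 for magnesium. Among non-members of at least 500 CPM it was 0.16 and 0.55, 0.38 and 0.40, and 0.11 and 0.50. The exception, CGRP at week 12, is the comparison in which Rpl39l stood at -3.80. Rpl39l passed the level filter there only through the zoledronate library, and the SD without it was not computed.

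**Figure D4:**
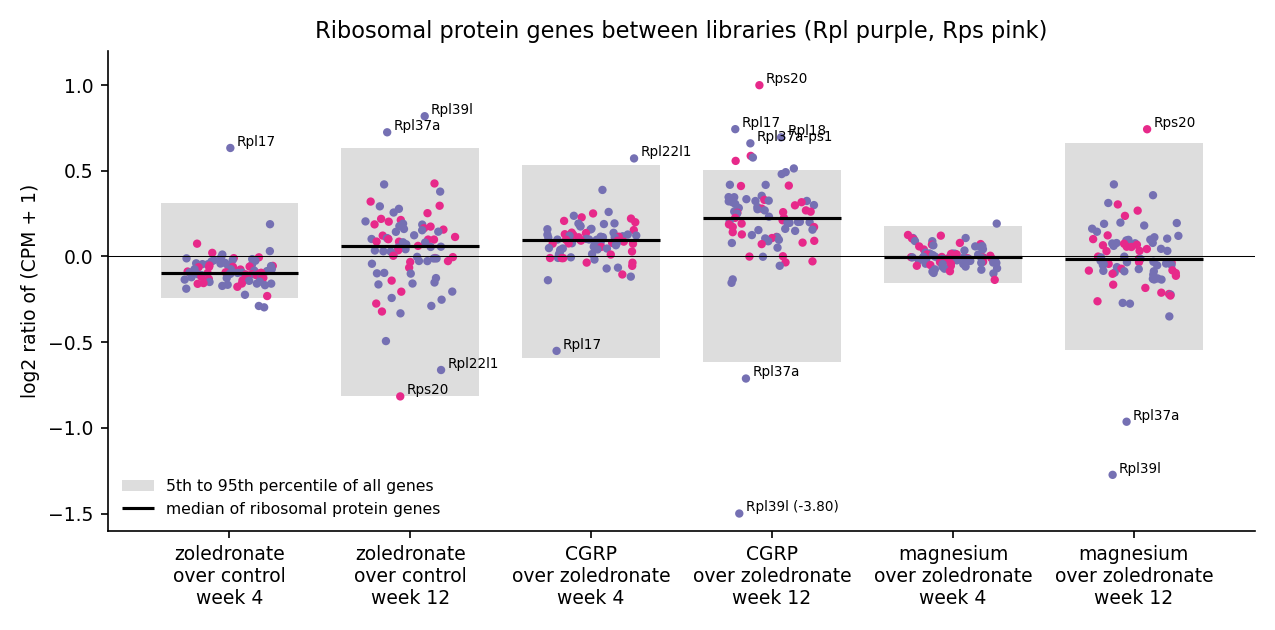
Log2 ratio of CPM plus 1 for each member of at least 50 CPM in the 6 comparisons, 1 library against 1 library. Points are genes, black lines the median member, and grey boxes the 5th to 95th percentile of all genes; Rpl39l in CGRP over zoledronate at week 12 is drawn at the lower edge with its value of -3.80. The black line lies at 0.22 in that comparison.

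Other parts of the translation machinery were followed by lists, with the same threshold of 0.32. Of 20 translation factors tested, 1 was higher and 6 lower in zoledronate than control at week 12, near the 13.3% and 27.5% of all genes, with Eif5a (-0.81) lowest and Eef1a1, which brings tRNA to the ribosome, highest (0.54). In CGRP over zoledronate at week 12, 3 were higher, led by Eif5a (0.45), and 1 lower, Eif4a2 (-0.40), with a median of 0.21, where 10.9% and 14.5% of all genes were higher and lower. The other transcripts known to start with a C and T run gave a median of 0.22 in that comparison, with 1 of 14 higher. In zoledronate over control at week 12 that list had 4 of 14 higher, led by Gas5 (1.03), and 4 lower, led by Hnrnpa1 (-1.21), the lower count being near the 27.5% of all genes. The ribosome assembly genes had 0 of 12 higher and 6 lower there, against 13.3% and 27.5% of all genes, with Nop58, a core protein of snoRNA particles, at -1.04. In CGRP over zoledronate at week 4, 7 of 14 were higher and 0 lower, against 12.8% and 11% of all genes, with Nop58 at 0.61. In CGRP over zoledronate at week 12, 3 of 12 assembly genes were higher and 1 lower, against 10.9% and 14.5%.

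The mitochondrial ribosome is a separate machine built from its own genes. In CGRP over zoledronate at week 12, 0 of 25 of its genes were past 0.32 in either direction, with a median of 0.00. Of all genes, 10.9% were higher and 14.5% lower there. At week 4 of that comparison 1 of 25 was higher and 0 lower, against 12.8% and 11% of all genes. The median at week 4 was 0.16, above that of the members. In zoledronate over control at week 12, 1 of 25 was higher and 3 lower, against 13.3% and 27.5% of all genes. Over the 8 libraries its summed level ran from 4317 to 4682 CPM. The cell cycle list had 9 of 9 tested genes lower in zoledronate than control at week 4 (median -0.71) and 7 of 7 at week 12 (-2.60), and 10 of 10 higher in CGRP than zoledronate at week 4 (1.16), where 2.91%, 27.5% and 12.8% of all genes were past the threshold in those directions. Only 2 of its genes reached 50 CPM in CGRP over zoledronate at week 12, where Ube2c was at 1.51 and Pcna at 0.15. Of 7 p53 targets, followed because free Rpl5 and Rpl11 act on Mdm2, 1 was higher and 3 lower in zoledronate over control at week 12, against 13.3% and 27.5% of all genes, with Gadd45a at 0.96 and Ccng1 at -1.31. Myc, which drives ribosome assembly, was at 0.31 in that comparison and at -0.35 in CGRP over zoledronate at week 12.

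Because cells in division differed so much in number between libraries, member levels were compared between dividing and other cells of the same library. Dividing cells, those with a UMI of Mki67, Top2a or Cenpf, gave a smaller share of their UMIs to the members in all 8 libraries. The shares in dividing and other cells were 25% and 26.8% in control at week 4, 21.7% and 23.5% in control at week 12, 23.5% and 25.2% in zoledronate at week 4, and 22.4% and 23.8% in zoledronate at week 12. They were 25.1% and 27.3% in CGRP at week 4, 25.5% and 27.7% in CGRP at week 12, 23.8% and 25.2% in magnesium at week 4, and 22.3% and 23.4% in magnesium at week 12. The mean difference was -1.73 ± 0.395 percentage points (SD, n = 8 libraries), with an exact two-sided sign-flip permutation p of 0.0078125, the smallest that 8 libraries can give. After Benjamini-Hochberg adjustment over the 3 such tests the permutation p was 0.0117. These p-values measure the spread between these libraries, whose animals are not given.

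Individual members did not all follow the sum. Of 81 members, 49 (60.5%) were lower in dividing cells in all 8 libraries, and 6 (7.41%) higher in all 8, against 28.9% and 43.8% of the 2408 genes of at least 50 CPM. The lowest were Rps29 (mean log2 ratio -0.27), Rps27 (-0.26), Rpl37a (-0.24) and Rplp1 (-0.22). The 6 that were higher were Rpl22l1 (0.27), Rpl4 (0.21), Rpl36 (0.11), Rpl36al (0.09), Rpl18 (0.07) and Rpl21 (0.07). Rpl22l1 was at a mean of 1130 CPM in dividing and 947 CPM in other cells, with library log2 ratios of 0.04 to 0.46. In cells without a division UMI it was still at 1204 CPM in control against 787 in zoledronate at week 12, a log2 ratio of -0.61.

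Dividing cells were deeper in every library, for example with a median of 23082 against 19450 UMIs in control at week 4, so the share was also compared by depth. The deepest 25% of cells by UMIs had a higher member share than the shallowest 25% in 6 of 8 libraries, by 1.21 ± 1.21 percentage points on average (SD, n = 8), with an exact sign-flip permutation p of 0.03125 before and after adjustment. This call was lost (exact permutation p of 0.0625) when control, zoledronate, CGRP or magnesium at week 12, or zoledronate or magnesium at week 4, was left out, at mean differences of 0.899 to 1.31. Between the deepest and shallowest 10% of cells the mean difference was 2.71 points, and as a mean over cells of the 25% classes it was 1.32 points, each higher in 8 of 8 libraries (exact sign-flip permutation p of 0.0078125). Depth thus went with a higher, and division with a lower, share. Within each depth class of 25% of cells, an alternative added after seeing the data, the mean difference of dividing cells was -1.80 points. After thinning every cell to 5000 UMIs it was -2.08 points.

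**Figure D5:**
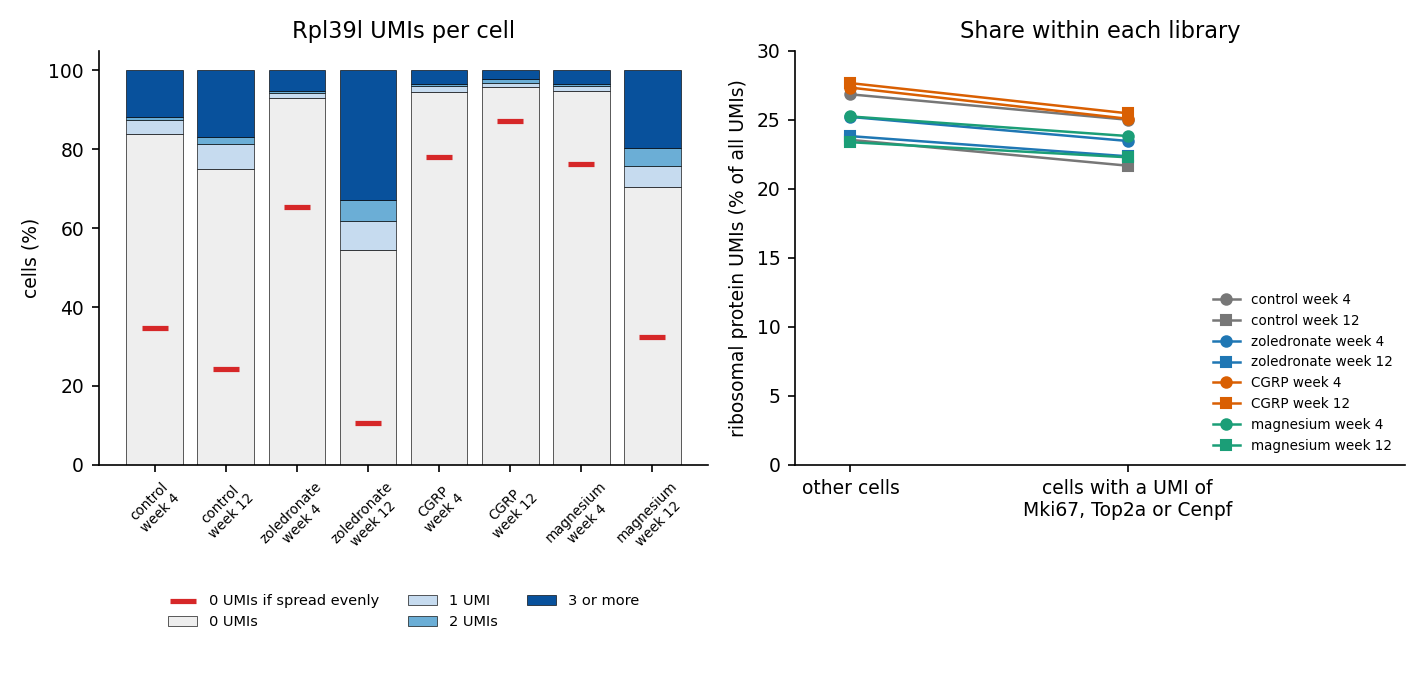
Left, share of cells in each library with 0, 1, 2 or at least 3 UMIs of Rpl39l (stacked bars, percent), with red dashes at the share with 0 UMIs expected if its UMIs were spread evenly. Right, share of UMIs from the 84 members in cells without and with a UMI of a division gene, 1 line per library; all 8 lines fall, by 1.09 to 2.26 percentage points.

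Barcodes under 5000 UMIs, which the rule leaves out, numbered 197 to 960 per library and had a far lower member share. It was 11.0% and 13.2% in control at weeks 4 and 12, 11.8% and 12.2% in zoledronate, 11.7% and 21.4% in CGRP, and 9.46% and 14.04% in magnesium. The mean difference from the kept barcodes was -11.6 ± 3.38 percentage points (SD, n = 8), lower in all 8 libraries, with an exact sign-flip permutation p of 0.0078125 and 0.0117 after adjustment. All 81 members were lower in all 8 libraries, against 38.5% of all genes, with a median log2 ratio of -0.97 against -0.18 for all genes. Rpl12 (-1.26), Rps12 (-1.22) and Rpl24 (-1.18) were furthest down, and Rps7 (-0.33), Rps21 (-0.44) and Rpl4 (-0.52) least. The share given up was taken by matrix genes: Col1a1, the main collagen chain of bone, had a mean log2 ratio of 1.903, Col1a2 of 1.60, Col3a1 of 1.75 and Fn1 of 1.71.

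Outside the members, the genes whose log2 level followed the summed members most closely over the 8 libraries, by Pearson's r among 2327 genes of at least 50 CPM, were Slc25a39 (0.92), Serpine2 (0.88), Pck2 (0.87), Ankrd24 (0.86), Naca (0.85), Pfdn1 (0.83), Rack1 (0.83), Fau (0.82), Anapc11 (0.82) and Ninj1 (0.81). Rack1 and Fau, ribosomal proteins that the symbol rule left out, were thus among the 10 highest, and Naca encodes a chaperone that sits at the ribosome's exit. Rack1 was at 2071 and 1449 CPM in control, 1803 and 1489 in zoledronate, 1976 and 1903 in CGRP, and 1750 and 1739 in magnesium. These r values describe 8 libraries that share annotation and scaling, and carry no test.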

How the data were processed

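The authors deposited 1 table of UMI counts per library, genes by cell barcodes. The values are whole-number counts as deposited, per the file headers and values. STAR and Rnor_6.0 are named in the submitters' processing notes. How cells were called, which annotation served and how multiply matching reads were treated is not stated in these sources. No doublets were removed here. Counts were summed over barcodes of at least 5000 UMIs and scaled to CPM, and log2 ratios used CPM plus 1 and genes with a mean of at least 50 CPM over both libraries. Each treatment and week is 1 library, so nothing was tested between libraries. Shares have exact Clopper-Pearson and levels exact Poisson 95% intervals, covering counting error only. Differences within libraries were tested over 8 libraries by exact two-sided sign-flip permutation. Named members were the 8 highest and 5 lowest, the 4 highest and 4 lowest per comparison, the 10 most variable, and the paralog, stalk, 5S and ubiquitin-fusion lists. A few genes that this rule takes are not reported here. Of non-members, the 10 most alike over the 8 libraries and at most 4 genes per list were named. The low copies Rpl18, Rpl27 and Rps15, the most even members between cells, the members furthest apart in shallow barcodes and by division, the gainers there, and the genes beside Rpl39l were chosen after their values were seen, as were the promoter windows and motifs. Members and lists were chosen with earlier results of these data known. Alternatives were edgeR 4.0.16 TMM and DESeq2 1.42.0 scaling factors, scaling to other genes, other barcode sets, thinning, standard members only, a 1.5-fold threshold and no level filter. Cells without a division UMI and classes of depth were added after seeing the data. Fold counting and the permutation test were tested on simulated data. Promoters came from RefSeq (GRCr8), whose coordinates do not apply to the authors' build.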

Additional observations from a re-analysis of the deposited data

Results flagged for a closer look

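The summed members were lower in zoledronate than control at week 4 (log2 ratio -0.0754) and higher at week 12 (0.0664), so the direction differed between weeks. They were above zoledronate alone in the magnesium library at week 4 (0.00476) and below it at week 12 (-0.0363). Rpl17 was higher in zoledronate than control at week 4 (0.63) and lower at week 12 (-0.33). In CGRP over zoledronate it was lower at week 4 (-0.55) and higher at week 12 (0.74). In each case 1 library is set against 1 other at each week, and the difference between weeks was not tested. In cells without a division UMI the ratios of Rpl17 were 0.61 and -0.27 over control, and -0.54 and 0.76 for CGRP.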

How the results depend on the processing

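With TMM factors the summed log2 ratios were -0.0776 and 0.180 for zoledronate over control at weeks 4 and 12, 0.09996 and 0.201 for CGRP over zoledronate, and 0.00933 and -0.0945 for magnesium over zoledronate. With DESeq2 size factors they were -0.0727, 0.201, 0.111, 0.189, 0.0089 and -0.0991 in the same order, and per UMIs of other genes -0.101, 0.0864, 0.101, 0.261, 0.00633 and -0.0473. All barcodes gave -0.0702, 0.0681, 0.0724, 0.198, -0.00466 and -0.0328, and thinning to 5000 UMIs -0.0798, 0.05997, 0.0779, 0.205, -0.00466 and -0.022. The magnesium ratio of week 4 thus turned under both, and the cause was not tested; every other summed ratio kept its direction under each alternative run. Cells without a division UMI gave -0.0908, 0.0165, 0.117, 0.216, 0.00197 and -0.0269. At a minimum of 10000 UMIs CGRP was at 0.0764 and 0.199 and magnesium at 0.00697 and -0.0384, and the standard members alone gave 0.0727 for zoledronate at week 12 and 0.0723 and 0.194 for CGRP. Of members past 0.32 on the log2 scale, zoledronate over control had 1 lower at week 4 per UMIs of other genes and 1 with no level filter, and 13 higher with TMM and 16 with DESeq2 at week 12. CGRP had 1 higher at week 4 and 1 lower at week 12 among standard members, 2 lower at week 4 with no filter, and 37 higher at week 12 per UMIs of other genes. Magnesium had 1 lower at week 4 with no filter, and 5 and 6 lower at week 12 with TMM and DESeq2. At 1.5-fold, zoledronate over control had 2 higher and 2 lower at week 12, CGRP 0 higher and 0 lower at week 4 and 5 higher at week 12, and magnesium 1 higher at week 12. Shares of all genes were not computed for these alternative counts. The share of members over all barcodes was 25.8% and 22.5% in control at weeks 4 and 12, 24.6% and 23.6% in zoledronate, 25.9% and 27.1% in CGRP, and 24.5% and 23.1% in magnesium. At a minimum of 10000 UMIs it was 26.0% and 22.7%, 24.7% and 23.7%, 26.0% and 27.2%, and 24.8% and 23.1%. Leaving out each library in turn, the difference of dividing cells ran from -1.82 to -1.66 points, that of deep cells from 0.899 to 1.42, and that of barcodes under 5000 UMIs from -12.5 to -11.1. For the comparisons between treatments, no paired analysis was possible because each sets 1 library against 1 other.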
